A study of Mus musculus with 15 samples.

Results

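Messenger RNA of mouse mesenchymal cells carrying the label hr was compared with that of cells carrying the label EF in the second of the study's experiments. The comparison takes 6 of the 15 libraries of the series, 4 of hr and 2 of EF, chosen by their genotype labels. The labels call all of them MSCLCs, an abbreviation they leave unexplained. The design text writes the groups as EFPrx1 and hr-EFPrx1, and the title of the series speaks of mesenchymal stem cells of bone, the coactivator YAP1, the fusion EWS::FLI1 of Ewing sarcoma, and reprogramming through IGF-1. Every title of the 8 libraries of experiment 2 starts with the number 221, which EF and hr therefore share. The hr titles add the words Combi and uns and then a pair of numbers, and here uns-1 and uns-2 name the pairs of hr libraries that share the first of these. What hr, Combi and uns stand for, any treatment, the driver of the fusion and the age of the animals are not stated in the labels. Whether the libraries of a group are separate cultures or clones is not stated either.

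The 8 libraries of experiment 2, which also hold 2 of the label ha, had 11195431 to 16378416 counts each and were run in the same lane. Distances between libraries were measured as the median squared difference over 9425 genes relative to counting noise, where 1 is noise alone. The distance was 1.31 between the EF libraries, 1.29 between the uns-1 libraries and 1.28 between the uns-2 libraries. It was 18.4 to 20.2 between the hr pairs and 19.4 to 22.6 between EF and hr. The EF libraries, and likewise the libraries of each hr pair, may therefore be repeat libraries of the same sample, and p-values count them as replicates. The spread between the EF libraries may then hold little beyond counting noise. With each close pair summed, edgeR called 0 genes (797 at an unadjusted p under 0.05), limma-voom 0 and DESeq2 98. Without either of the EF libraries edgeR called 0 genes (1918 and 1888 at an unadjusted p under 0.05), and without any 1 of the hr libraries it called 332 to 379. The values of both hr pairs are therefore given for the genes described.

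Genes known from mesenchymal cells were detected in all 6 libraries. Col1a1, which encodes a chain of type I collagen, lay between 2886 and 3605 CPM (counts relative to the library's total, scaled by TMM) and Vim, the intermediate filament vimentin, between 4094 and 5594. Pdgfra, a receptor of stromal cells, had 258 and 261 CPM in EF, 268 and 255 in uns-1, and 81.8 and 89.3 in uns-2, and did not pass the test (adjusted p = 0.495). Ptprc, the pan-leukocyte antigen, had at most 0.178 CPM and the epithelial adhesion gene Epcam was at 0. A listed 0 does not by itself show that a gene was not expressed. Of 23 hematopoietic markers 5 passed the filter on low counts, of which 1, Lyz2, was lower in hr, where 3.07% of all genes tested were. The summed level of these markers was 19.2 to 20.5 CPM in EF and 19.7 to 30.1 CPM in hr. Mitochondrial genes took 3.48% to 3.53% of the counts in EF and 3.62% to 4.09% in hr. The part of these small differences in the results was not tested.

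Of 13998 genes tested, 973 (6.95%) differed between hr and EF at an adjusted p under 0.05. In hr 543 genes (3.88%) were higher and 430 (3.07%) lower, and all 973 had the 4 hr libraries on one side of both EF libraries. Among all genes tested, 22.9% had every hr library above EF and 24.1% every hr library below it. The median size of a called change was 0.79 on the log2 scale. Changes of at least 1 on that scale numbered 260 among the increases and 79 among the decreases. In 821 of the called genes the changes of uns-1 and uns-2 lay within 0.5 log2 of each other. The test pools the 4 hr libraries and so favours genes in which uns-1 and uns-2 agree. This count, and that of called genes on one side of EF, are therefore partly set by the selection. Pairs on opposite sides of EF also occurred: 1119 genes tested had uns-1 above and uns-2 below EF, and 915 the reverse.

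The gene group with the most changes, of those examined, was that of glycolysis and the response to low oxygen. Cells short of oxygen stabilise the transcription factor subunit encoded by Hif1a, because the prolyl hydroxylases that mark it for destruction through the Vhl protein need oxygen. Stabilised HIF binds a short core motif near its targets. These raise glucose uptake and glycolysis, divert pyruvate from mitochondria, remove mitochondria and alter collagen processing and vessel growth.

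Promoters of 4 genes that rose in both hr pairs are shown because they carry the core motif ACGTG of the hypoxia response. Each is a stretch of 120 bases from RefSeq on GRCm38.p6, upstream of a start that RefSeq gives for the gene and read along the gene's strand. The stretches of Ldha and Ero1l lie inside the longer coordinates that GENCODE gives for these genes. ACGTG or its reverse complement CACGT stands in capitals, as does CACGTG, which holds the motif on both strands. The stretches are chrX:106186902-106187021 on the plus strand for Pgk1, chr7:46845657-46845776 on the plus strand for Ldha, chr7:138909552-138909671 on the minus strand for Bnip3, and chr14:45318574-45318693 on the minus strand for Ero1l (Ero1a in RefSeq).
Pgk1: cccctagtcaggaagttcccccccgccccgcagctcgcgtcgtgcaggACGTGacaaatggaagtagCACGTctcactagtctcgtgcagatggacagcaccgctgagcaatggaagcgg
Ldha: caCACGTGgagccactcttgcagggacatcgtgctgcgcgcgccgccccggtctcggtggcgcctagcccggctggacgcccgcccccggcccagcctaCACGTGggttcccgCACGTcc
Bnip3: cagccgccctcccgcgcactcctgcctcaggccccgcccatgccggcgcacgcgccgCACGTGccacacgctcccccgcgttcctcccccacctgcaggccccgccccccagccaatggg
Ero1l: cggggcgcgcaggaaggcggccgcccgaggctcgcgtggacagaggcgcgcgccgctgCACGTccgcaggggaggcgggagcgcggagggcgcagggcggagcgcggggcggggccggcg
Of the 22 called members of the group, 21 matched a RefSeq promoter window of 300 bases, and 14 of them held ACGTG on either strand. By window, 15 of the 29 windows of these genes (51.7%) held it, against 19.6% of all 32851 windows and 25.02% of the 12745 windows of genes tested. The variant GCGTG (reverse complement CACGC) was in 58.6% of the members' windows, in 32.4% of all windows and in 49.996% of those of genes tested. A match is a description of these letters and no evidence of binding.

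Of the 30 glycolysis and hypoxia genes 28 passed the filter, 22 rose, 0 fell and 6 did not pass the test, where 3.88% of all genes tested rose. In 26 of the 28 every hr library lay above EF, which 22.9% of all genes showed, and in 2 every one lay below. The median change was 1.29 on the log2 scale, 1.47 for uns-1 and 1.11 for uns-2, where the median of all genes tested was 0.01. With 1 hr library left out, 16 or 17 members rose, with the close pairs summed 0 by edgeR and 13 by DESeq2, and the median stayed between 1.14 and 1.46 in every setting tried. The group had been seen to differ in earlier results of these data, so its count is no independent support of its direction. Members beyond the 4 with the lowest p-values, and genes named outside the lists, were chosen after their values were seen.

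Glucose entry and the steps of glycolysis were higher in both pairs. Slc2a1, which encodes the glucose transporter GLUT1, had 87.6 and 87.0 CPM in EF, 294 in each uns-1 library, and 245 and 255 in uns-2. All hr libraries lay above both EF libraries, with a change of 1.64 ± 0.18 (log2, SE; adjusted p = 0.00772). Pfkp and Pfkl, subunits of the phosphofructokinase that commits glucose to glycolysis, rose by 1.31 ± 0.13 and 1.24 ± 0.15. Aldoa, the aldolase of muscle and most cultured cells, rose by 1.36 ± 0.21 and Tpi1, the triose phosphate isomerase, by 0.98 ± 0.11. Pgk1, the phosphoglycerate kinase that makes ATP in the pathway, had 806 and 777 CPM in EF, 2466 and 2443 in uns-1, and 2375 and 2339 in uns-2. Its change of 1.60 ± 0.13 (adjusted p = 0.0051) was nearly the same in both pairs, at 1.63 and 1.57. Eno2, an enolase best known from neurons, went from 20.3 and 21.6 CPM in EF to 113 and 109 in uns-1 and to 67.5 and 72.4 in uns-2.

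The last steps of the pathway had changes under 1 on the log2 scale. Pkm, the pyruvate kinase, rose by 0.67 ± 0.15 (adjusted p = 0.0423) and Ldha, the lactate dehydrogenase subunit that makes lactate from pyruvate, by 0.87 ± 0.12 (adjusted p = 0.0134). Ldha had 1037 and 1042 CPM in EF, 2019 and 2045 in uns-1, and 1780.3 and 1775 in uns-2. Pdk1, the kinase that shuts pyruvate out of mitochondria, rose by 1.52 ± 0.23 (adjusted p = 0.0158). Gapdh, often used as a constant reference, rose by 1.02 ± 0.18 (adjusted p = 0.0224).

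The hexokinases, which trap glucose in the cell, did not pass the test. Hk1 changed by 0.74 ± 0.19 (adjusted p = 0.0565). Hk2 lay at 53.4 and 50.6 CPM in EF, 76.4 and 77.4 in uns-1, and 175 and 172 in uns-2, a change of 1.27 ± 0.48 (adjusted p = 0.15) that was larger in uns-2 than in uns-1. Pfkfb3 and Pfkfb4, which set the level of the activator of phosphofructokinase, were the 2 members with every hr library below EF. Their changes of -0.92 ± 0.52 and -0.94 ± 0.29 did not pass (adjusted p = 0.312 and 0.0927). Slc16a3, a lactate exporter, was listed at 0 in every library, which does not show that it was not expressed, and Car9, a carbonic anhydrase, had at most 0.267 CPM in these 6 libraries.

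**Figure D1:**
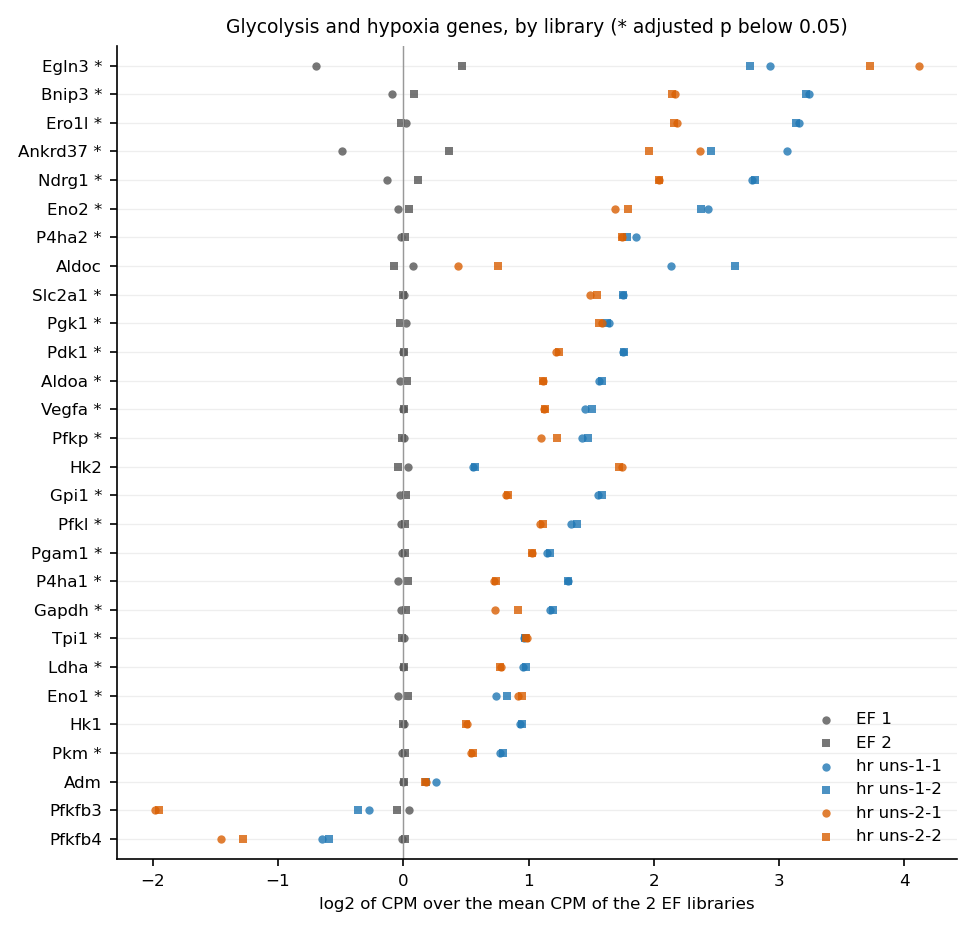
Level of the 28 tested glycolysis and hypoxia genes in each EF and hr library, as log2 of CPM over the EF mean; each row is a gene, grey points are EF, blue points uns-1, orange points uns-2, and an asterisk marks an adjusted p under 0.05. The hr points lie right of both EF points for 26 genes and left of them for Pfkfb3 and Pfkfb4, and uns-1 and uns-2 nearly coincide for P4ha2 and Pgk1.

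Genes that respond to HIF outside glycolysis held some of the largest changes. Bnip3, a mitochondrial receptor for mitophagy (chromosome 7, 138890836 to 138909519 on GRCm38), had 58.7 and 66.0 CPM in EF, 589.9 and 578 in uns-1, and 280.3 and 276 in uns-2. The hr pairs did not overlap each other, and both lay far above EF, with a change of 2.79 ± 0.43 (adjusted p = 0.0158). Bnip3l, its relative, rose by 1.40 ± 0.17. Ero1l, the oxidase that drives disulfide formation in the endoplasmic reticulum (chromosome 14, 45283087 to 45318771), had 128 and 125 CPM in EF, 1130.2 and 1108 in uns-1, and 574 and 564 in uns-2. Its change was 2.74 ± 0.40 (adjusted p = 0.0146). Ndrg1, a stress-induced gene, rose by 2.47 ± 0.36 and Vegfa, the main growth factor for vessels, by 1.32 ± 0.30 (adjusted p = 0.0148 and 0.0445).

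Called genes also included 3 that encode collagen-modifying enzymes, P4ha1, P4ha2 and Plod2. P4ha2, a catalytic subunit of the collagen prolyl 4-hydroxylase (chromosome 11, 54100095 to 54131665), lay at 61.9 and 63.3 CPM in EF, 227 and 215 in uns-1, and 209.7 and 209.6 in uns-2. Its change of 1.78 ± 0.11 and that of Kctd11, an adaptor of a ubiquitin ligase, had the lowest adjusted p of the genes named here (0.00201 for both). Kctd11 (chromosome 11, 69878261 to 69881406) went from 6.65 and 7.58 CPM in EF to between 32.8 and 35.1 in the 4 hr libraries. P4ha1 rose by 1.05 ± 0.22, and Plod2, the lysyl hydroxylase that sets collagen cross-links, by 1.86 ± 0.19 (adjusted p = 0.035 and 0.00638).

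Of 3 genes that act in oxygen sensing, Egln3 was on the list, while Egln1 and Vhl were chosen after their values were seen. Egln3, a HIF prolyl hydroxylase and itself a HIF target, had 7 counts in EF and 162 in hr, and rose by 3.43 ± 0.66 (adjusted p = 0.0297). Egln1, the main HIF hydroxylase, had 76.8 and 82.9 CPM in EF, 329 and 319.6 in uns-1, and 205 and 189.9 in uns-2, a rise of 1.71 ± 0.28 (adjusted p = 0.0188). Vhl rose by 0.84 ± 0.15 (adjusted p = 0.0261). The HIF subunits themselves did not pass the test. Hif1a had 159 and 158 CPM in EF and 197 to 249 in hr (0.49 ± 0.16, adjusted p = 0.108). Epas1, which encodes HIF-2 alpha, had 76.1 and 74.0 CPM in EF, 27.8 and 28.3 in uns-1, and 7.71 and 7.64 in uns-2 (-2.07 ± 0.60, adjusted p = 0.0802). Hif1a was thus above and Epas1 below EF in every hr library. Other genes known to respond to HIF, namely Kdm3a, Ak4, Mxi1, Hilpda, Ndufa4l2, Pgm1, Fam162a, Higd1a and Gys1, rose by 1.10 to 2.31. They were chosen after their values were seen, and Pfkfb3 and Pfkfb4 of the glycolysis and hypoxia list lay below EF in every hr library. Of the nuclear respiratory chain genes, 0 of 32 passed the test, where 6.95% of all genes tested did. The median change of the respiratory chain genes was -0.13.

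Genes of DNA replication and mitosis had lower values in hr, with lower medians in uns-1 than in uns-2, and few of them passed the test. Of 28 tested replication genes, 5 fell, 0 rose and 23 missed the threshold, with every hr library below EF in 22. Of all genes tested 3.07% fell and 24.1% had every hr library below EF. Their median change was -0.61, made up of -0.95 in uns-1 and -0.37 in uns-2. Pcna, the sliding clamp of DNA polymerases, had 257 CPM in each EF library, 138 and 139.9 in uns-1, and 171 and 166 in uns-2, and fell by 0.74 ± 0.15 (adjusted p = 0.0329). Gins1, a subunit of the replicative helicase, fell by 1.09 ± 0.20, Mcm4, another such subunit, by 0.93 ± 0.22, the DNA ligase Lig1 by 0.84 ± 0.18 and the clamp loader subunit Rfc4 by 0.82 ± 0.11 (adjusted p = 0.0126 to 0.0494). Rrm1 and Rrm2, the subunits of ribonucleotide reductase, lay below EF in uns-1 (-1.08 and -1.11) and above it in uns-2 (0.10 and 0.12). Without the uns-1 pair 3 replication genes were called lower, and without the uns-2 pair 19. Of the 5 that fell in the main comparison, Pcna and Gins1 lie on chromosome 2 and Rfc4 and Mcm4 on chromosome 16. Genes of these chromosomes had median changes of -0.22 and -0.23.

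Of 25 mitosis genes, 4 fell, 0 rose and 21 missed the threshold, where 3.07% of all genes tested fell. The median of the list was -0.53 (-0.72 in uns-1 and -0.32 in uns-2). Bub1b, a kinase of the spindle checkpoint, had 129 and 134 CPM in EF, 57.5 and 54.6 in uns-1, and 77.8 and 77.9 in uns-2, and fell by 0.97 ± 0.18 (adjusted p = 0.0261). Plk1, a kinase of mitotic entry, fell by 0.83 ± 0.16. The ubiquitin-conjugating enzyme Ube2c fell by 0.63 ± 0.10 and the cyclin Ccnb2 by 0.60 ± 0.12. Bub1b and Ube2c lie on chromosome 2, whose genes had a median change of -0.22. Mki67, the usual proliferation marker, had 431 and 443 CPM in EF, 211 and 199 in uns-1, and 377 and 405 in uns-2, and did not pass (adjusted p = 0.447). Cdkn1a, the inhibitor of cyclin-dependent kinases known as p21, rose by 0.96 ± 0.22 (adjusted p = 0.047), from 159.9 and 160.4 CPM in EF to 262 and 269 in uns-1 and 359.8 and 352 in uns-2. It was the 1 called gene of 20 tested in the list of p53 targets and senescence genes. Of all genes tested 3.88% rose. Gadd45a, a DNA damage-induced gene that rose as well, was not on this list.

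**Figure D2:**
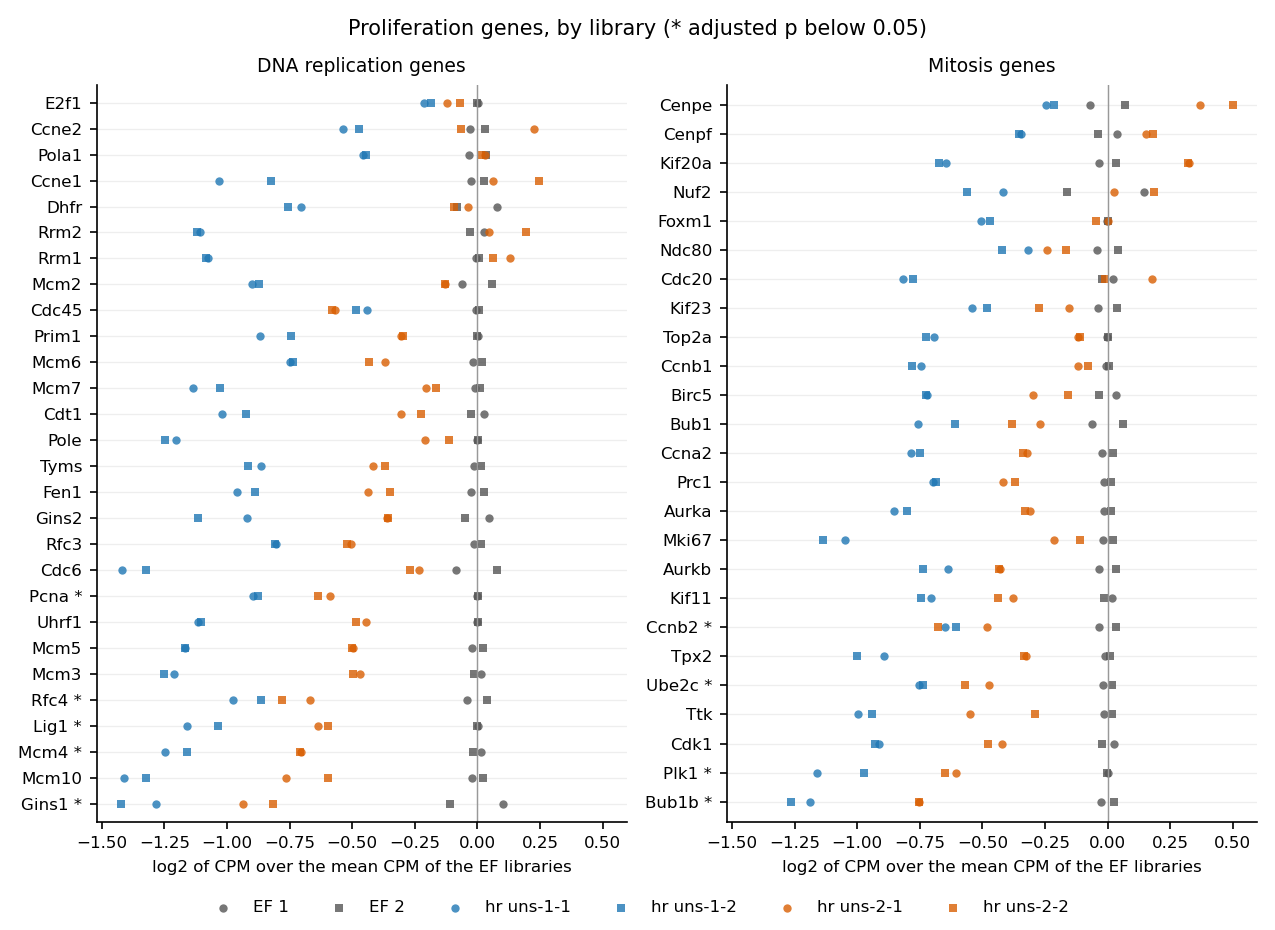
Level of the tested DNA replication (left) and mitosis genes (right) in each EF and hr library, as log2 of CPM over the EF mean; colours and asterisks are as in the plot of glycolysis genes. The uns-1 points lie left of EF in every row and the uns-2 points mostly between them and EF, and all 4 hr points lie left of EF for 22 replication genes.

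Called genes that reached 10 CPM on average in EF or hr were ranked by the smaller of their changes in uns-1 and uns-2. Genes without a symbol, or with that of a predicted model, clone, pseudogene or mitochondrial gene, were left out. The largest increase by this measure was in Xist, the noncoding RNA that silences one X chromosome in female cells (chromosome X, 103460366 to 103483254). It had 0.355 and 0.0798 CPM in EF, 130.5 and 123 in uns-1, and 448 and 449.8 in uns-2. This was 5 counts in the EF libraries together against 14335 in hr, a ratio of library-scaled counts of 1396 (95% interval 598 to 4299, counting error only). The ha libraries had 399 and 934 CPM. Genes of the X chromosome had a median change of 0.22, with 39 higher and 6 lower of 460 tested. Ddx3y, a gene of the Y chromosome, was listed at 0 in all libraries, which does not show that this chromosome was absent.

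Several of the next largest increases started from under 1 CPM. Aire, a regulator of antigen display best known from the thymus, had 8 counts in EF and 585 in hr, Cgn, which encodes the tight junction protein cingulin, 7 and 519, and Csn3, which encodes a milk casein, 15 and 577. All had higher values in uns-2 than in uns-1. Ltbp2, a matrix protein of elastic fibres, went from 2.75 and 2.71 CPM in EF to 14.7 and 16.3 in uns-1 and 37.2 and 36.6 in uns-2 (3.26 ± 0.55, adjusted p = 0.0201). Chst11, a chondroitin sulfotransferase, rose by 2.60 ± 0.35, Shpk, a kinase of sedoheptulose, by 2.47 ± 0.25 and Ccng2, an atypical cyclin, by 2.67 ± 0.26 (adjusted p = 0.00594 to 0.0117).

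By the same measure the largest decrease was in Slpi, a secreted inhibitor of leukocyte proteases (chromosome 2, 164354070 to 164389095). It had 28.3 and 26.3 CPM in EF, 3.79 and 3.40 in uns-1, and 1.93 and 1.24 in uns-2, and fell by 3.39 ± 0.38 (adjusted p = 0.00772). Fgf7, a growth factor that stromal cells make for epithelia (chromosome 2, 126034658 to 126091185), had 144 and 146 CPM in EF and 25.9 to 39.0 in hr, and fell by 2.17 ± 0.46 (adjusted p = 0.0372). Lpl, the lipoprotein lipase, fell by 2.08 ± 0.36 while Plin2, a coat protein of lipid droplets, rose by 1.40 ± 0.17 (adjusted p = 0.0203 and 0.00885). C3, the central complement protein, had 146 and 151 CPM in EF and 47.9 to 52.7 in all 4 hr libraries, a fall of 1.54 ± 0.18 (adjusted p = 0.00772). The chemokines Ccl2 and Ccl7 fell by 1.12 ± 0.23 and 1.12 ± 0.19. Of 21 chemokine and inflammation genes tested, C3, Ccl2 and Ccl7 fell and 0 rose, where 3.07% of all genes fell and 3.88% rose.

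Genes of the extracellular matrix were among the called genes in both directions. Fbn1, the fibrillin of microfibrils, had 120.02 and 117 CPM in EF and 26.1 to 39.7 in hr, and fell by 1.86 ± 0.19 (adjusted p = 0.00638). Col6a3, a chain of type VI collagen, fell by 0.90 ± 0.11, from 1987 and 2035 CPM in EF to 1031 to 1129 in hr (adjusted p = 0.00804). Fmod, a collagen-binding proteoglycan, went from 68 counts in EF to 1 in hr. In the other direction, Tgfbi, an adhesion protein induced by TGF-beta, had 1 count in EF and 229 in hr, a ratio of 111 (95% interval 19.8 to 4423). Fbln1, Fbln2 and Fbln5, the fibulins of elastic fibres and basement membranes, rose by 1.81 ± 0.38, 1.24 ± 0.29 and 0.64 ± 0.10. Of 23 collagen and interstitial matrix genes 2 rose and 3 fell, and of 13 matricellular genes 4 rose and 0 fell, against 3.88% higher and 3.07% lower over all genes. In the matricellular list every hr library lay above EF in 6 genes and below it in 5, against 22.9% and 24.1% of all genes. The median of this list was 0.57 in uns-1 and -0.06 in uns-2. Tgfbi and Fbln1, with at most 0.0798 and 0.887 CPM in EF, could pass the filter through the groups where they were higher.

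Laminin chains changed in both directions. Lamc1, the gamma chain of most laminins, fell by 1.06 ± 0.13, from 725 and 744 CPM in EF to 322 to 386 in hr. Lamb3, a chain of the laminin under epithelia, rose by 1.52 ± 0.21. It had 5.23 and 5.99 CPM in EF, 13.7 and 13.6 in uns-1, and 17.2 and 19.7 in uns-2. Of the type IV collagen genes, Col4a1 fell by 0.66 ± 0.11 and Col4a2 by 0.86. Itga6, an integrin subunit that binds laminin, fell by 0.74 ± 0.11, with 432 and 442 CPM in EF and 253 to 271 in hr.

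A few keratins, the intermediate filaments of epithelia, were higher in hr. Krt19 (chromosome 11, 100140810 to 100148665) had 10.6 and 10.1 CPM in EF, 34.7 and 34.6 in uns-1, and 30.8 and 33.7 in uns-2, and rose by 1.70 ± 0.12 (adjusted p = 0.00231). Krt14 rose by 3.45 ± 0.57 and Krt7 by 3.08 ± 0.68 (adjusted p = 0.0185 and 0.0415). Of 28 epithelial genes 10 passed the filter, and these 3 were called, where 3.88% of all genes tested rose. Krt14 had 1.15 and 0.719 CPM in EF and Krt7 0.444 and 1.20, so both could pass the filter through hr. The share of called members is therefore partly set by the filter. With limma-voom 1 member was called higher and 1 lower. Cdh1, the epithelial cadherin, had at most 0.177 CPM. The claudin Cldn7 was listed at 0, which does not show that it was not expressed.

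Of 33 receptor tyrosine kinase genes and ligands tested, 0 rose and 4 fell, where 3.88% of all genes rose and 3.07% fell. The median of the list was 0.04. Pdgfrb, the PDGF receptor beta of mesenchymal cells, had 69.0 and 70.1 CPM in EF, 32.6 and 30.3 in uns-1, and 13.2 and 13.1 in uns-2, and fell by 1.64 ± 0.38 (adjusted p = 0.0451). Pdgfa, a ligand of its sister receptor, fell by 1.07 ± 0.17 and Fgfr2 by 1.14 ± 0.11. Dusp6 and Spred2, which ERK signalling induces and which restrain it, fell by 0.79 ± 0.13 and 0.60 ± 0.08. Id1 and Smad6, targets of BMP signalling, fell by 1.29 ± 0.22 and 1.00 ± 0.19. Bmp7, a BMP ligand, had 0 counts in EF and 40 in hr, where the 95% interval of the ratio starts at 5.04 (counting error only). The Wnt ligands Wnt9a and Wnt7b rose by 1.98 ± 0.37 and 1.70 ± 0.34.

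Stress response and lineage groups each had few called members, in both directions. Their counts are to be read against 3.88% of all genes that rose and 3.07% that fell, and several are near these shares. Of 27 ATF4 and unfolded protein response genes 2 rose and 2 fell. Ddit3, the transcription factor CHOP, had 28.7 and 26.4 CPM in EF and 44.7 to 54.2 in hr, and rose by 0.85 ± 0.13 (adjusted p = 0.0161). Of 28 NRF2 and glutathione genes 2 rose and 1 fell. Ephx1, an epoxide hydrolase, rose by 1.34 ± 0.13 and Cbr3, a carbonyl reductase, fell by 1.09 ± 0.17. In the TGF-beta and BMP list 3 of 32 rose and 2 fell, among integrin and adhesion genes 3 of 29 and 2, and among Notch and Hedgehog genes 1 of 17 and 2. Jag1, a Notch ligand, fell by 0.84 ± 0.15, and Hhip, a decoy receptor for Hedgehog ligands, rose by 2.31 ± 0.53.

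Runx2, the transcription factor that starts the osteoblast lineage, had 68.7 and 73.9 CPM in EF and 39.4 to 45.6 in hr, and fell by 0.72 ± 0.10 (adjusted p = 0.0126). Phex, a peptidase of bone and tooth cells, rose by 2.36 ± 0.28. These were the called members of 8 osteoblast genes tested. This count and those of the lists below are to be read against 3.88% of all genes that rose and 3.07% that fell. Of 8 chondrocyte genes 1 fell, Sox5, and of 11 adipocyte genes Lpl fell and Plin2 rose. Among 20 mesenchymal markers 0 rose and 2 fell, Pdgfrb and Alcam. Steap1 was the 1 called gene, lower in hr, of 17 tested genes reported as activated by EWS::FLI1 in human cells. Among 26 Hox genes Hoxc10 rose, and in the MHC class I list of 17 H2-D1 rose and Psmb10 fell. Neural markers had 1 called of 6, Tubb3, which was higher, and osteoclast markers 1 of 3, Nfatc1, which was lower. Of the 6 endothelial and 3 myogenic markers tested, and of the matrix protease, contractile and imprinted gene lists, 0 were called.

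In the IGF axis, which the series title names, 2 of 21 tested genes rose and 2 fell, where 3.88% of all genes rose and 3.07% fell. The median of the list was 0.09. Igfbp4, an IGF-binding protein, had 78.9 and 78.6 CPM in EF, 197 and 202 in uns-1, and 132 and 144 in uns-2, a rise of 1.10 ± 0.21 (adjusted p = 0.0285). Igfbp3 rose by 1.40 ± 0.25, from 1.51 and 1.28 CPM in EF to 2.78 to 4.30 in hr. Igfbp7 fell by 1.05 ± 0.23 and Stc2, an inhibitor of the protease that cleaves IGFBP4, by 0.84 ± 0.17. The ligand Igf1 had 0.559 to 1.15 CPM in the 6 libraries, and Igf2 at most 0.178. The receptor Igf1r had 181 and 184 CPM in EF, 119.6 and 116 in uns-1, and 170.4 and 169.8 in uns-2, and did not pass (adjusted p = 0.279).

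Yap1, the coactivator named in the title, had higher values in all hr libraries, while some of its known targets lay on opposite sides of EF in uns-1 and uns-2. Yap1 (chromosome 9, 7931999 to 8004596) had 1276 and 1249 CPM in EF, 1806 and 1807 in uns-1, and 1427 and 1412 in uns-2. Its change of 0.35 ± 0.15 did not pass (adjusted p = 0.179). Ccn1, a matricellular protein and classic YAP1 target, had 269 and 265 CPM in EF, 58.4 and 59.2 in uns-1, and 444 and 436 in uns-2. Ccn2, its relative, had 42.4 and 44.1 CPM in EF, 8.77 and 8.60 in uns-1, and 69.1 and 68.6 in uns-2. Both were thus below EF in uns-1 and above it in uns-2, and so was Ankrd1, a cardiac ankyrin repeat protein. The changes of Ccn1 were -2.18 in uns-1 and 0.72 in uns-2, and those of Ankrd1 were -0.87 and 0.82.

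Of 25 tested YAP1/TAZ-TEAD targets 3 rose and 2 fell, shares to be read against 3.88% and 3.07% of all genes. All hr libraries lay above EF in 8 of them, below it in 3, and overlapped EF or split by pair in the other 14. Among all genes tested, 22.9% had every hr library above EF and 24.1% every hr library below it. Their median was -0.34 in uns-1 and 0.60 in uns-2. Amotl1, an angiomotin that binds YAP1, was lower in both pairs, with 386 and 389.9 CPM in EF, 220.3 and 223 in uns-1, and 211 and 207 in uns-2 (-0.85 ± 0.10, adjusted p = 0.00772). Arhgef17 fell by 0.52 ± 0.10, and Gadd45a, a DNA damage-induced gene, rose by 1.08 ± 0.25. Among 28 Hippo pathway genes 0 rose and 2 fell, Amotl1 and the kinase Stk4 (-0.49 ± 0.09). Stk4, the MST1 kinase upstream of YAP1, had 75.2 and 70.1 CPM in EF and 48.9 to 54.7 in hr.

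**Figure D3:**
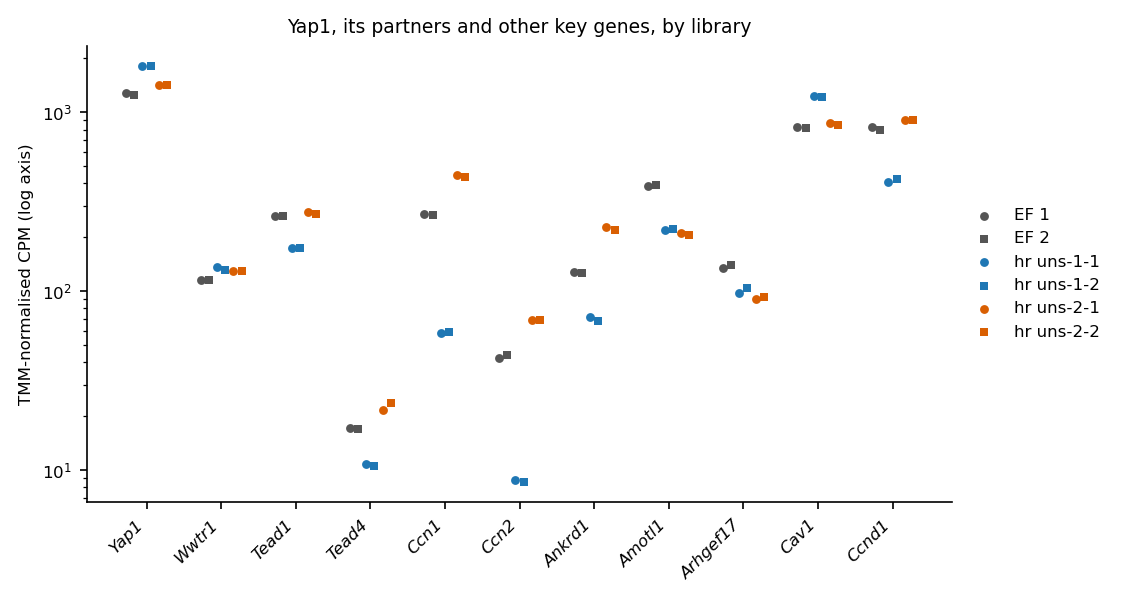
TMM-normalised CPM (log axis) of Yap1, Wwtr1, the Tead genes and other key genes in each EF and hr library; grey is EF, blue uns-1 and orange uns-2. Ccn1, Ccn2 and Ankrd1 lie below EF in uns-1 and above it in uns-2, while Amotl1 and Arhgef17 lie below EF in all 4 hr libraries.

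Other gene groups had medians that differed between the hr pairs, with few or no members called. Over all genes tested 3.88% rose and 3.07% fell. The medians of both pairs use the same EF libraries, so they are given side by side with no measure of their relation. Cholesterol synthesis genes had a median of 0.25 in uns-1 and -1.18 in uns-2, with 0 of 24 called. Interferon response genes had -0.02 and 0.82, with 2 of 33 higher and 0 lower, and p53 targets 0.05 and 0.85. AP-1, EGR and ERK feedback genes had -0.45 and 0.35. Chemokine genes had -0.62 and -0.03, and Cxcl1, a neutrophil attractant, had 38.2 and 36.0 CPM in EF, 5.23 and 3.58 in uns-1, and 36.0 and 40.4 in uns-2. Medians above 1 in both pairs were found for the glycolysis and hypoxia genes and for the 10 tested epithelial and keratin genes (1.03 in uns-1 and 1.16 in uns-2). The epithelial list holds 28 genes, and members low in EF, such as Krt7 (20 counts in EF and 352 in hr), could pass the filter through hr. The filter can therefore raise this median.

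**Figure D4:**
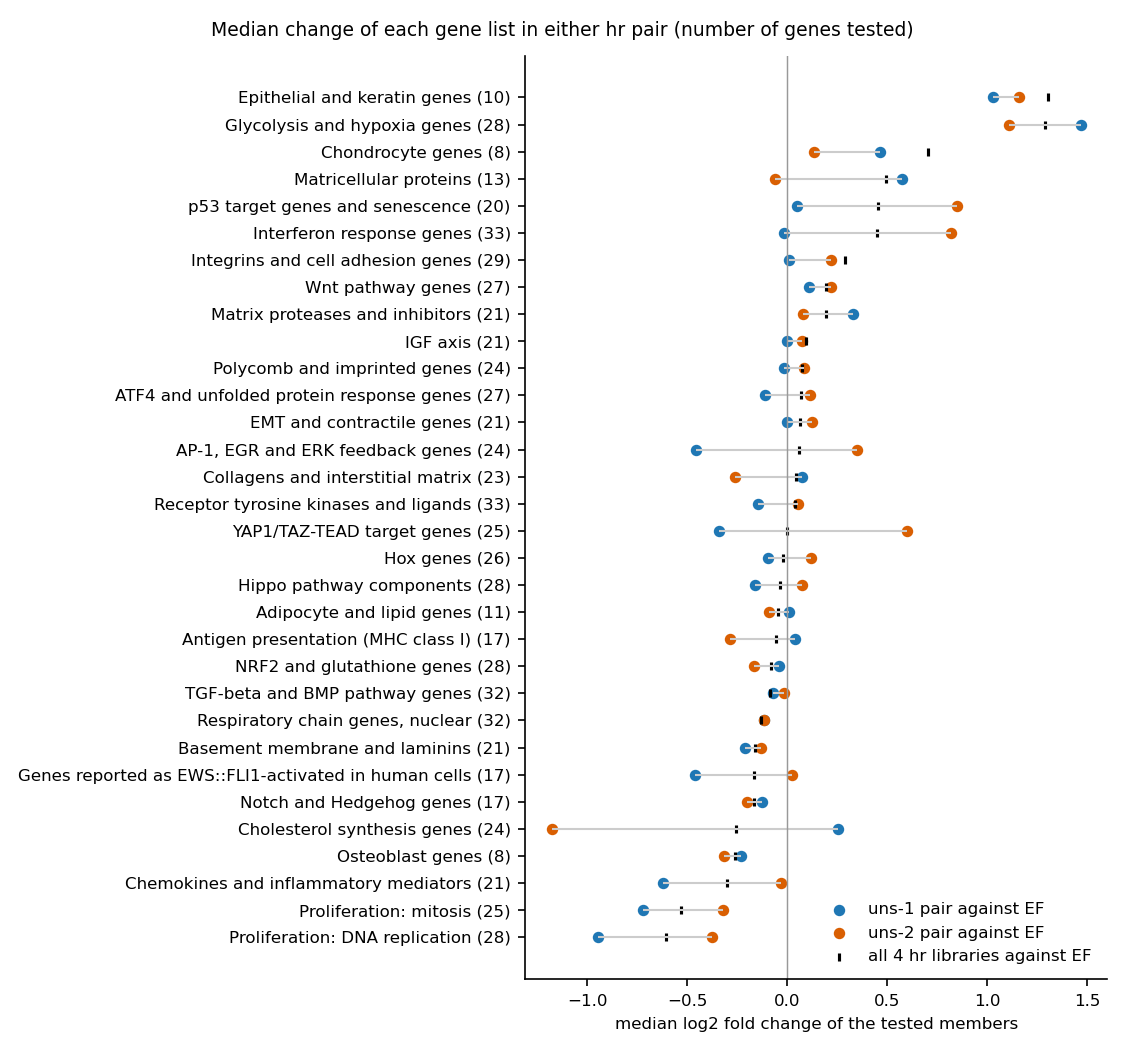
Median log2 fold change of the tested members of each gene list in uns-1 (blue), in uns-2 (orange) and in all 4 hr libraries (black tick) against EF, with the number of genes tested in brackets. The glycolysis and hypoxia list lies at 1.47 and 1.11, both proliferation lists lie below 0 in either pair, and the YAP1/TAZ-TEAD list (-0.34 and 0.60) and the cholesterol list (0.25 and -1.18) lie on opposite sides of 0.

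Changes were spread unevenly over the chromosomes. Genes of chromosome 14 had a median change of 0.38, with 62 called higher and 5 lower of 477 tested, and those of chromosome 18 a median of 0.44, with 41 higher and 5 lower of 379. Chromosome 16 had a median of -0.23, with 3 higher and 47 lower of 435, and chromosome 2 of -0.22, with 15 higher and 104 lower of 1115. The medians of the 15 other autosomes ran from -0.10 to 0.20. Chromosomes 2, 14, 16 and 18 held 282 of the 973 called genes (29.0%) and 17.2% of the genes tested. They were picked for their medians in these same data, so their share of the called genes is partly set by that choice. On all of these chromosomes the medians of uns-1 and uns-2 lay on the same side of 0, and that of uns-2 lay further out. Of the called genes named above, Slpi, Fgf7, Fbn1, Pcna, Gins1, Bub1b, Ube2c, Id1, Jag1, Stk4 and Itga6 lie on chromosome 2 and fell, while Pdk1 and Bmp7 lie there and rose. On chromosome 16, Rfc4, Mcm4, Alcam and Cbr3 fell and Fam162a rose. Ero1l and Bnip3l, on chromosome 14, rose, and Pdgfrb and Nfatc1, on chromosome 18, fell. DNA copy number was not measured in these files. Taken relative to the median of each gene's chromosome, the median of the glycolysis and hypoxia genes was 1.29. The replication genes then had a median of -0.55 and the mitosis genes of -0.43, against -0.61 and -0.53 before.

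**Figure D5:**
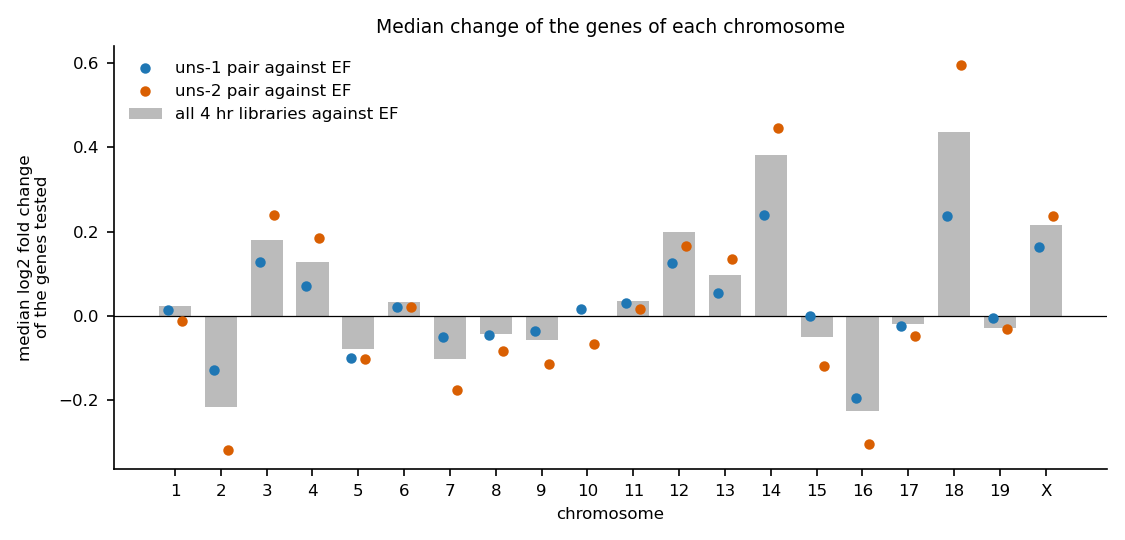
Median log2 fold change against EF of the genes tested on each chromosome; bars are all 4 hr libraries, blue points uns-1 and orange points uns-2. Chromosomes 14 and 18 stand above and chromosomes 2 and 16 below the rest in both pairs.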

How the data were processed

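Poly(A)-enriched RNA of the 15 libraries was sequenced. The values the authors deposited are expected counts, 1 table for all genes. STAR, RSEM and the build GRCm38.p6 are named without versions in the submitters' processing notes. Annotation release and strand setting are not stated in the labels, so overlapping genes may share reads, and RSEM divides reads between near-identical copies. The fusion is no feature of the table. Of 55471 gene identifiers 55230 matched GENCODE symbols and positions. Expected counts were rounded (8.25% of those in experiment 2 were not whole), filtered with filterByExpr (minimum count 10), scaled by TMM and tested with edgeR 4.0.16 (quasi-likelihood, robust, two-sided; R 4.3.3) with Benjamini-Hochberg adjustment over all genes tested at 0.05. The 8 libraries of experiment 2 were fitted together and share one spread. The medians of uns-1 and uns-2 come from the same fit with the hr pairs as separate groups. DESeq2 1.42.0 and limma 3.58.1 were alternatives. SE is from the F statistic. The script was tested on simulated counts. Intervals of count ratios are exact binomial and cover counting error only.

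Genes named are 22 key genes, the 12 of largest change in both pairs in either direction (mean of 10 CPM or more where higher), and for each of 38 lists the called members with the lowest p-values, 4 at most. The 12 were ranked by the smaller change of the pairs, without predicted models, clones, pseudogenes, mitochondrial genes and genes without a symbol. Not every gene so selected is named in the text. Members and lists were chosen with earlier results of these data known.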

Additional observations from a re-analysis of the deposited data

Results flagged for a closer look

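For 8 of the genes chosen by the naming rules, both libraries of one hr pair lay above EF and both of the other below it, so the pairs differed in direction. Genes named outside these rules could split as well, such as Vim, which lay above EF in uns-1 and below it in uns-2. Only the 8 are described here. The difference between uns-2 and uns-1 was tested with edgeR with the pairs as separate groups, where the spread comes from libraries that lie close to counting noise, so these p-values may be too small. It was 2.99 on the log2 scale for Ccn2 (adjusted p = 0.0271), 2.90 for Ccn1 (adjusted p = 2.99e-05), 1.69 for Ankrd1 (adjusted p = 0.000287), 1.13 for Ccnd1 (adjusted p = 0.0025), 1.09 for Tead4 (adjusted p = 0.00186), 0.65 for Tead1 (adjusted p = 0.00231) and 0.47 for Trp53 (adjusted p = 0.0167). Prrx1, a limb mesenchyme transcription factor, differed the other way, at -0.65 (adjusted p = 0.0168).

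Among the 4 hr libraries, 1 value stood apart for 2 genes. Igfbp7 had 23.05 CPM in uns-2-1 and 24.6 to 24.8 in the others, and Gstm5, a glutathione transferase, had 11.6 CPM in uns-1-2 and 12.8 to 13.1 in the others. In both, the gap took more than the share 0.829 of the range, which chance gives in about 1 of 20 groups. Over as many genes as are named here several such gaps would come by chance, so these 2 are not unusual in number. The rate also treats the 4 hr libraries as independent, while the libraries of each pair lay close to counting noise.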

How the results depend on the processing

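The number of called genes was 973, all with both hr pairs on the same side of EF, and stayed within 1.5 times that number with DESeq2 size factors, without the filter, with a filter at 5 CPM and with limma-voom (689 to 1026). DESeq2's Wald test called 1973, of which 1966 lay on the same side, a fit of the hr and EF libraries alone 1927, and uns-1 and uns-2 as separate groups 3674, of which 3353 lay on the same side. Without the uns-1 pair 2074 were called and without the uns-2 pair 2221. The close pairs summed gave 0 by edgeR (797 at an unadjusted p under 0.05), also on the genes of the main comparison (729), 0 by limma-voom (776) and 98 by DESeq2, the last 3 chosen after seeing the data. Leaving out 1 library gave 0 to 379 genes. The libraries' last title numbers did not pair them, with correlations of deviations of -0.02, -0.18 and -0.11, and the fit with the replicate block on these numbers called 322. The causes of these differences were not tested. Signs changed only for genes that had not passed in the main comparison. Without the uns-1 pair the change was 0.086 for Tead1, 0.44 for Tead4, 0.75 for Ccn1, 0.70 for Ccn2, 0.10 for Trp53, -0.15 for Prrx1, 0.053 for Myc and 0.18 for Ccnd1. Without the uns-2 pair it was -0.87 for Ankrd1 and -0.016 for Irs1. Ankrd1 also stood at -0.029 with limma-voom, -0.035 with limma-voom on summed pairs, and -0.026 with the pairs as separate groups. With 1 library left out, Ankrd1 ran from -0.090 to 0.45, Ccn1 from -0.53 to 0.23, Ccn2 from -0.60 to 0.18, Tead4 from -0.24 to 0.14 and Irs1 from -0.0078 to 0.21. At this depth genes with few counts, such as Tgfbi and Fmod, have wide intervals.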
